A study of Mus musculus with 12 samples.

Results

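MHC class I molecules display peptides from inside the cell to CD8 T cells and to killer receptors. The genes described here are 8 class I heavy chains, the shared light chain B2m and the transactivator Nlrc5, taken by symbol from the gene count table of a tumour series. The heavy chains are H2-K1 and H2-D1 (classical), H2-Q4, H2-Q6 and H2-Q7 (Q region), and H2-T22, H2-T23 and H2-M3 (T and M regions). All 10 members were among the 24956 gene symbols of the table. Of these, 7 passed the filter on low counts, which 12856 genes passed in all. H2-Q6, H2-Q7 and H2-T23 did not pass it.

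The 12 libraries came from tumours of PDA.69, a single mouse line of pancreatic ductal adenocarcinoma (PDAC) labelled as KPC-derived and Tcelllow. KPC mice are a genetically engineered model of pancreatic cancer. There were 6 tumours in hosts labelled WT and 6 in hosts labelled Alb-Cre+/+ Stat3f/f, in which the albumin promoter drives Cre and so removes floxed Stat3, a transcription factor of cytokine signalling, in hepatocytes. The labels give no host age, sex or strain and no treatment, and state no Cre or floxed allele for the WT hosts. They do not say whether the tumours grew in separate mice, so p-values here speak only of the spread over the samples at hand. RNA came from fixed tissue scraped off slides and was sequenced from transcript 3' ends, so a count does not grow with transcript length. Stat3 itself checks no label here, since Cre acts in hepatocytes and the libraries are tumours. Its CPM, the count relative to library size, was 257 ± 15.5 in the WT group and 258 ± 34.0 in the Alb-Cre Stat3f/f group (SD, n = 6 each). CPM values are scaled by TMM, a factor that evens out libraries dominated by a few genes.

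A class I molecule needs a heavy chain, B2m and a peptide. The proteasome cuts the peptide, the Tap1 and Tap2 transporter carries it into the endoplasmic reticulum and a loading complex fits it into the heavy chain. Heavy chain and B2m genes are switched on by interferon through factors such as Irf1, by NF-kB, and by Nlrc5, which is recruited to their promoters by factors bound at the S, X and Y boxes. Loss of class I from pancreatic tumour cells is a known route of escape from CD8 T cells.

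RefSeq promoters (GRCm38.p6, 250 bases before to 50 after the gene start) were at hand for 9 of the 10 members. They are shown because the members share letters at the places where Nlrc5's partners, interferon factors and NF-kB are known to act. Each run below has 130 bases, 5′ to 3′ on the gene's strand. Capitals mark, where present and in this order, a kappaB-like match (GGGATTNCC), an interferon element-like match (TTTCNCTT), an X2-like match (TGNTGAC) and the Y-like match (ATTGG) that starts 28 bases after the X2-like one, or 27 bases after it in H2-Q6. The capitals of different motifs do not overlap.
H2-K1: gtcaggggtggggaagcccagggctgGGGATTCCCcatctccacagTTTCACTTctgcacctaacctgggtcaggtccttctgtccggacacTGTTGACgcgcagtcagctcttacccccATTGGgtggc
H2-D1: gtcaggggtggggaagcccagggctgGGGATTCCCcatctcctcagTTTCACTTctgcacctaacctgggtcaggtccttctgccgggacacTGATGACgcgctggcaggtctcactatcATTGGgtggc
H2-Q4: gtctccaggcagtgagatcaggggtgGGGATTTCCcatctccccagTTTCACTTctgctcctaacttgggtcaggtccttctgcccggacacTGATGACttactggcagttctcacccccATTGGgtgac
H2-Q6: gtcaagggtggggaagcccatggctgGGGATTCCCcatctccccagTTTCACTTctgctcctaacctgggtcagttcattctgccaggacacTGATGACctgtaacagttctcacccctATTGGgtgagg
H2-M3: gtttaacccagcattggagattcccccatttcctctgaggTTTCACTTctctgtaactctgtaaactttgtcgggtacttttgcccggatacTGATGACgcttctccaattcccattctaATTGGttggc
H2-T22: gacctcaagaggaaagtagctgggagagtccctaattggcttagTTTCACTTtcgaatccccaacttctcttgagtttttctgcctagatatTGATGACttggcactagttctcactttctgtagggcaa
B2m: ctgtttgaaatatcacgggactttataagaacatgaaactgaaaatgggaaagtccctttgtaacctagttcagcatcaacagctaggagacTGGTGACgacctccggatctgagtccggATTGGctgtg

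The heavy chain runs lie on chromosome 17 and the B2m run on chromosome 2. They are chr17:34000354-34000483 (H2-K1, minus strand), chr17:35262898-35263027 (H2-D1, plus), chr17:35379418-35379547 (H2-Q4, plus), chr17:35424652-35424781 (H2-Q6, plus), chr17:37270093-37270222 (H2-M3, plus), chr17:36042848-36042977 (H2-T22, minus) and chr2:122147514-122147643 (B2m, plus). In GENCODE M21, on the same build, most of these runs lie upstream of the gene model. The H2-D1 run lies inside the gene model, which starts at 35262730, and the H2-M3 run reaches into the first bases of its gene, which starts at 37270220. Nlrc5 lies on chromosome 8.

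The X2-like and Y-like pair stood at a fixed spacing in most members. Searched on both strands, TGNTGAC occurred in 14.2% and ATTGG in 37.9% of 27025 RefSeq promoters of the same length. All 9 members with a promoter held both. The pair at a spacing of 28 bases occurred in 10 promoters (0.0370%), of which 5 were H2-K1, H2-D1, H2-Q4, H2-M3 and B2m. At 27 bases it occurred in 8 promoters, of which 2 were H2-Q6 and H2-Q7. H2-T22 and H2-T23 held the pair at neither spacing. The interferon element-like TTTCNCTT was in all 8 heavy chain promoters and in 7.82% of all promoters, and was not found in the B2m window. The kappaB-like GGGATTNCC was in 5 members, H2-K1, H2-D1, H2-Q4, H2-Q6 and H2-Q7, and in 0.984% of promoters. The motifs were chosen after the sequences had been seen, and a match is only a match of letters. A miss, as in B2m, does not show that an element is absent, since other spellings were not searched.

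Library totals ran from 5691707 to 8085609 counts, and the TMM factors from 0.578 to 1.29. All 8 epithelial markers, among them Krt19, Krt7 and Epcam, were detected in every tumour, which does not tell tumour from normal epithelium. Normal pancreas was present in unequal amounts. The 15 genes of acinar digestive enzymes took 0.508 to 18.8% of WT and 0.719 to 35.6% of Alb-Cre Stat3f/f counts, and over 15% in 5 tumours, WT 5 and Alb-Cre Stat3f/f 1, 2, 3 and 4. These 5 are called acinar-rich below.

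The class I heavy chains H2-K1 and H2-D1, their light chain B2m and the Q region chain H2-Q4 were more abundant in the Alb-Cre Stat3f/f group than in the WT group, by 1.67 to 3.06 times. All 7 tested members had a higher estimate, with a median log2 fold change of 0.85. Of these 7, 4 rose past the test, 0 fell and 3 did not pass. Over all tested genes 2.23% rose, and the median log2 fold change was -0.00. For each of the 4 that rose, the lowest Alb-Cre Stat3f/f value exceeded the highest WT value, which held for 1.37% of tested genes. In bulk tissue more cells of a type and more RNA per cell cannot be told apart. Genes were tested by the quasi-likelihood method of edgeR, with Benjamini-Hochberg adjustment over the 12856 tested genes and a threshold of 0.05.

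**Figure D1:**
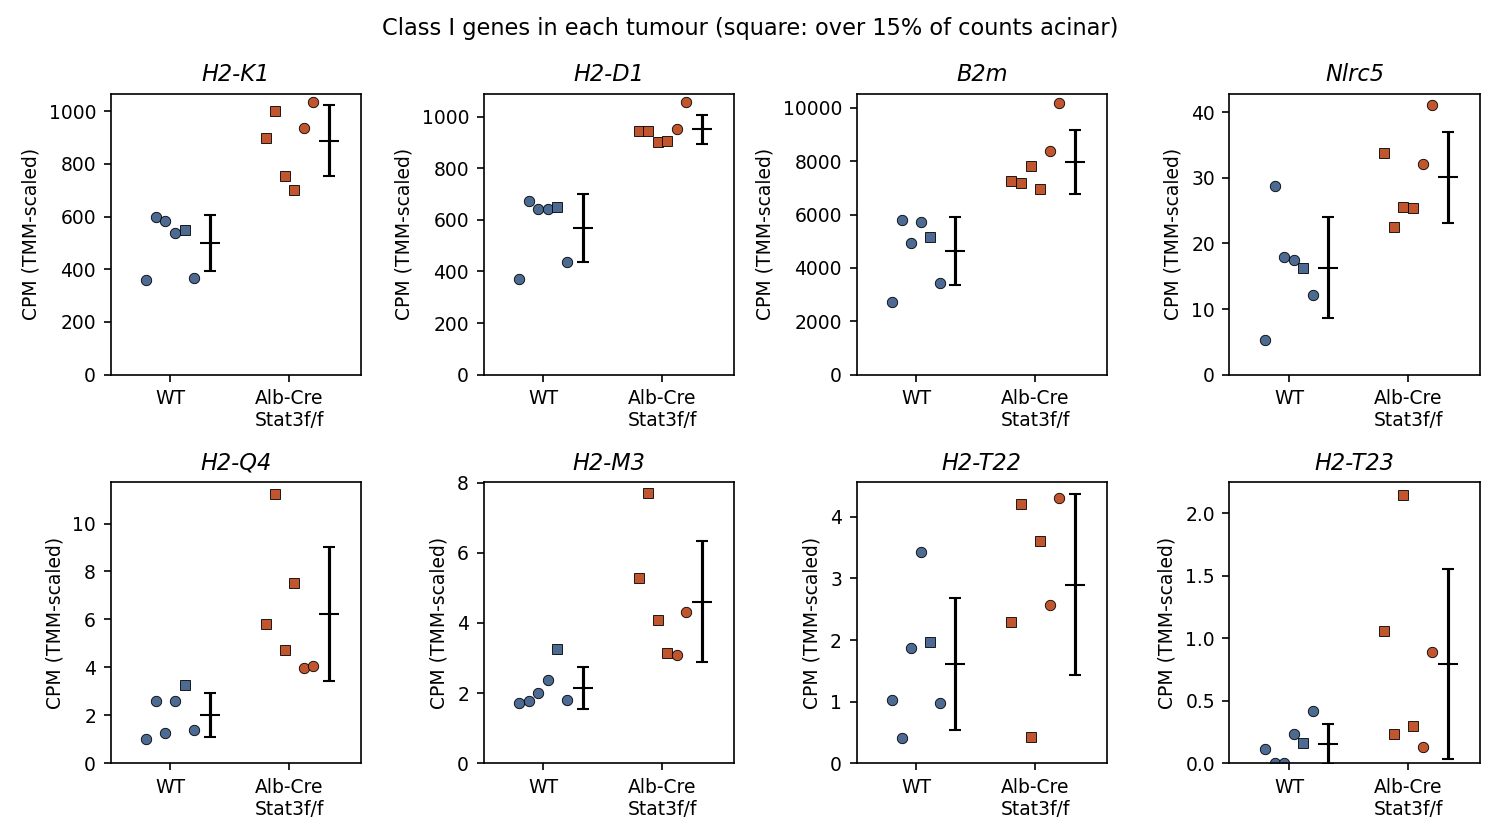
CPM (vertical axes, linear, from 0, a different range in each panel) of the 8 members with any count, for each of 6 WT and 6 Alb-Cre Stat3f/f tumours. Each point is a tumour, squares are the 5 acinar-rich tumours, and the bars are mean and SD. The groups do not overlap for H2-K1, H2-D1, B2m and H2-Q4, and overlap for Nlrc5, H2-M3, H2-T22 and H2-T23.

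H2-K1 encodes a classical heavy chain, the main peptide display molecule of mouse cells with H2-D1. Its level ran from 360 CPM through a median of 543 to 597 CPM in WT tumours, and from 701 through 918 to 1033 CPM in Alb-Cre Stat3f/f tumours. Within WT the tumours fell into a lower pair, WT 1 at 360 and WT 6 at 368 CPM, and 4 tumours from 536 CPM upwards. The lowest Alb-Cre Stat3f/f tumours were 3 and 4, both acinar-rich, and they still lay above the highest WT tumour. The log2 fold change was 0.83 ± 0.14 (SE; edgeR Benjamini-Hochberg adjusted p = 0.00334), 1.78 times.

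H2-D1, the other classical chain, had nearly the same levels. It ran from 371 CPM through 642 to 674 CPM in WT, and from 900 through 945 to 1055 CPM in Alb-Cre Stat3f/f tumours. WT 1 and WT 6 were again the low pair, at 371 and 435 CPM. The SD was 130 CPM over WT and 55.8 CPM over Alb-Cre Stat3f/f tumours, a difference in spread that was not tested. It rose by 0.74 ± 0.13 on the log2 scale (edgeR Benjamini-Hochberg adjusted p = 0.00508).

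B2m encodes the light chain without which heavy chains do not reach the cell surface. It ranked 19 of all symbols by mean CPM. Its level ran from 2711 through 5050 to 5782 CPM in WT tumours and from 6978 through 7546 to 10167 CPM in Alb-Cre Stat3f/f tumours. WT 1 and WT 6 were lowest once more, at 2711 and 3430 CPM, and Alb-Cre Stat3f/f 6 was highest. B2m rose by 0.79 ± 0.17 on the log2 scale (edgeR Benjamini-Hochberg adjusted p = 0.0162). As a plain share of library counts, without TMM scaling, B2m took 0.314 to 0.729% in WT and 0.452 to 1.09% in Alb-Cre Stat3f/f tumours. On that scale just 2 of the 6 Alb-Cre Stat3f/f values, of tumours 5 and 6, exceeded the highest WT value.

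H2-Q4, a Q region chain, was scarce and had the largest fold change of the tested members. Its counts were 9 to 22 in WT libraries and 22 to 50 in Alb-Cre Stat3f/f libraries. In CPM it ran from 1.02 through 1.99 to 3.27 in WT tumours and from 3.97 through 5.26 to 11.2 in Alb-Cre Stat3f/f tumours. The highest tumour was Alb-Cre Stat3f/f 2, and the nearest tumours of the 2 groups, WT 5 and Alb-Cre Stat3f/f 5, differed by less than 1 CPM. The log2 fold change was 1.61 ± 0.36 (edgeR Benjamini-Hochberg adjusted p = 0.0191). Leaving out 1 tumour at a time, it passed in 10 of 12 fits. The log2 fold change was 1.504 without WT 3 (adjusted p = 0.0521) and 1.37 without Alb-Cre Stat3f/f 2 (adjusted p = 0.0596).

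H2-Q6 and H2-Q7, neighbours of H2-Q4, had 0 counts in all 12 libraries. A count of 0 allows up to 3 counts, or 0.341 to 0.701 CPM depending on the library, for counting error only. This does not show that the genes were silent. The sources used here do not say how reads that match several genes were counted. In the 3' comparison below, 40.2% of H2-Q6 stretches and 0 of H2-Q7 stretches occur in another gene. Exact sharing in that window was thus found for H2-Q6 and not for H2-Q7. Near matches and other transcript ends were not searched, so the comparison cannot say whether H2-Q7 reads also match other genes. Why either gene had no count was not tested.

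H2-M3 encodes a chain that presents formylated peptides. Its level ran from 1.71 through 1.90 to 3.27 CPM in WT tumours and from 3.08 through 4.19 to 7.72 CPM in Alb-Cre Stat3f/f tumours. The groups overlapped through the acinar-rich WT 5, and 4 of 6 Alb-Cre Stat3f/f values exceeded the highest WT value. Its change of 1.08 ± 0.33 on the log2 scale did not pass (edgeR Benjamini-Hochberg adjusted p = 0.0731), and passed without WT 5 (1.23, adjusted p = 0.0483).

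H2-T22 encodes a non-classical chain recognised by a subset of gamma-delta T cells. It ran from 0.410 through 1.45 to 3.43 CPM in WT tumours and from 0.429 through 3.08 to 4.31 CPM in Alb-Cre Stat3f/f tumours. The groups overlapped over most of their range, with WT 2 and Alb-Cre Stat3f/f 3 lowest. Its log2 fold change was 0.85 ± 0.49 (edgeR Benjamini-Hochberg adjusted p = 0.357). H2-T23 encodes Qa-1, the ligand of the Klrd1 and Klrc1 receptor pair of killer cells. It had 7 counts over the WT libraries and 27 over the Alb-Cre Stat3f/f libraries, 10 of these in tumour 3. The ratio after TMM scaling was 4.79 (95% interval 2.03 to 13.03, exact binomial, counting error over pooled reads only). In fits without the filter its log2 fold change was 2.21 ± 1.02 in edgeR (unadjusted p = 0.0379, Benjamini-Hochberg adjusted p = 0.275) and 2.33 ± 1.01 in DESeq2 (unadjusted p = 0.0208, adjusted p = 0.160), so it did not pass in either.

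Nlrc5 is the transactivator of class I genes and is itself induced by interferon gamma. Its level ran from 5.35 through 16.8 to 28.7 CPM in WT tumours and from 22.4 through 28.8 to 41.1 CPM in Alb-Cre Stat3f/f tumours. WT 2, at 28.7 CPM, lay among the Alb-Cre Stat3f/f tumours, and the other 5 WT tumours lay below all of them. Its log2 fold change of 0.89 ± 0.29 was close to those of H2-K1 and B2m, but its SE was larger and it did not pass (edgeR Benjamini-Hochberg adjusted p = 0.109). Without WT 2 it was 1.13 (adjusted p = 0.0286). In DESeq2, another count test, 6 members rose: the 4 above, H2-M3 (adjusted p = 0.0317) and Nlrc5 (adjusted p = 0.0278). DESeq2 also called more genes in all: 4.10% of the genes to which it gave an adjusted p rose.

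Since 3' counts do not grow with length, levels of different members can be set side by side. The order by mean CPM over all 12 tumours was B2m, H2-D1, H2-K1, Nlrc5, H2-Q4, H2-M3, H2-T22 and H2-T23. B2m lay outside the spread of H2-D1, and H2-K1 outside that of Nlrc5, while H2-D1 and H2-K1 overlapped in both genotypes. Within a tumour H2-D1 was above H2-K1 everywhere except Alb-Cre Stat3f/f 2. H2-Q4, H2-M3 and H2-T22 were not apart beyond their spread in either genotype (means of 1.61 to 2.15 CPM in WT and 2.90 to 6.21 CPM in Alb-Cre Stat3f/f tumours). Of all counts on the 33 class I heavy chain symbols, H2-K1 and H2-D1 together took 96.4 to 98.2%. This share depends on how reads that match several genes were counted, which the sources used here do not give.

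At the 3' end, where the reads fall, some of these chains share sequence with other genes, not all of them class I chains. In GENCODE M21, the share of 50-base stretches in the last 300 transcript bases that also occur in another gene's transcript was 0.797% for H2-K1, 17.1% for H2-D1, 45.4% for H2-Q4, 49.4% for H2-T22, all of it with H2-T10, and 50.6% for H2-T23. It was 40.2% for H2-Q6 and 0 for H2-Q7, H2-M3, B2m and Nlrc5. The gene sharing most was Kcnk4 for H2-D1 (8.76%), Gm43321 for H2-Q4 (25.9%), Efr3a for H2-Q6 (38.6%) and Rab33b for H2-T23 (31.1%). For H2-K1 it was H2-D1. The levels of H2-Q4, H2-T22 and H2-T23 are therefore uncertain to the extent that shared reads were dropped or split, which was not tested.

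The proportions among the classical chains, B2m and Nlrc5 did not differ detectably between the genotypes. H2-K1 and H2-D1 together amounted to 23.5 ± 2.23% of the B2m counts in the WT group and 23.3 ± 2.52% in the Alb-Cre Stat3f/f group (exact two-sided permutation p = 0.874 over 924 relabellings, adjusted p = 0.874 over 3 ratios). H2-K1 was 46.8 ± 1.40% of the pair in the WT group and 48.1 ± 2.92% in the Alb-Cre Stat3f/f group (exact permutation p = 0.359, adjusted p = 0.662). Nlrc5 had 3.39 ± 0.976 counts per 1000 B2m counts in the WT group and 3.76 ± 0.560 in the Alb-Cre Stat3f/f group (exact permutation p = 0.442, adjusted p = 0.662). The Nlrc5 ratio was lowest in WT 1, at 1.97, and highest in WT 2, at 4.97, so its full range lay within the WT group. These ratios need no scaling between libraries.

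When every library was scaled to its B2m count in place of TMM, 0 of the 6 other tested members passed (edgeR with Benjamini-Hochberg adjustment), and 1, H2-Q4, had an unadjusted p under 0.05. The log2 fold changes relative to B2m were 0.025 ± 0.24 for H2-K1, -0.048 ± 0.24 for H2-D1, 0.067 ± 0.50 for H2-T22, 0.28 ± 0.45 for H2-M3 and 0.15 ± 0.27 for Nlrc5. For H2-Q4 it was 0.91 ± 0.44 (adjusted p = 0.0526). On this scale, which sets B2m equal in all tumours, 73.2% of all other genes passed in either direction. A miss does not show that the members move equally: an SE of 0.24 leaves room for an unequal change of the classical chains and B2m.

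White blood cells carry much class I, and several lists of their markers moved with the members. The share of all tested genes that rose was 2.23%. All 8 pan-leukocyte genes, among them Ptprc and Coro1a, had higher estimates and 5 rose; none was at 0 in any tumour. The leukocyte score, the mean log2 CPM of the 8, ran from 4.37 to 5.09 in WT tumours and from 5.26 to 5.73 in Alb-Cre Stat3f/f tumours, with no overlap. Their summed share of counts did overlap, at 0.0325 to 0.0484% and 0.0336 to 0.0765%. The T cell score (8 genes, of which 1, Cd247, rose) ran from 1.00 to 2.27 and from 2.56 to 3.42, and the macrophage score (8 genes, of which 6 rose) from 6.40 to 6.66 and from 6.88 to 7.55. No T cell or macrophage marker of these lists was at 0 in any tumour. Other lists overlapped between the groups in their scores. Of 7 dendritic cell genes 1 rose, Wdfy4 (scores 1.69 to 2.97 in WT, 2.78 to 3.50 in Alb-Cre Stat3f/f), of 4 tested B cell genes 0 passed (-0.61 to 2.03 and -0.070 to 3.63), and of 7 fibroblast genes 1 rose, Dcn (7.02 to 7.58 and 7.13 to 7.99). Of 3 tested neutrophil genes 0 passed, with a median log2 fold change of 0.11 and scores of 3.43 to 5.10 and 4.23 to 5.07. Cd79a of B cells was at 0 in all 12 tumours, and the neutrophil gene Ly6g was at 0 in some. The tumour epithelium score (8 genes, of which 1, Krt7, fell) ran from 7.44 to 8.06 and from 7.32 to 7.59.

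With the leukocyte score as a covariate, 0 members passed and 0 had an unadjusted p under 0.05 (edgeR with Benjamini-Hochberg adjustment), and 0.00778% of all genes rose. The log2 fold change of H2-K1 was then 0.17 ± 0.27, of H2-D1 0.25 ± 0.27, of B2m 0.22 ± 0.36 and of H2-Q4 0.72 ± 0.73, while H2-M3 turned to -0.14 ± 0.68. The SEs were about as large as the estimates or larger. Because the score separates the genotypes without overlap, leukocyte content and host genotype cannot be told apart in these 12 tumours.

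The classical chains and B2m kept their calls when acinar content was modelled. With the acinar score as a covariate, H2-K1 (0.83 ± 0.15), H2-D1 (0.73 ± 0.14) and B2m (0.82 ± 0.19) passed, against 1.06% of all genes that rose. H2-Q4 was 1.30 ± 0.39 and did not pass (edgeR Benjamini-Hochberg adjusted p = 0.107). Without the 5 acinar-rich tumours, the fit had 5 WT and 2 Alb-Cre Stat3f/f tumours. H2-K1 alone passed there (1.01 ± 0.19, edgeR Benjamini-Hochberg adjusted p = 0.0286), against 0.607% of all genes. The estimates of B2m (1.04 ± 0.27) and Nlrc5 (1.17 ± 0.51) were larger than over all tumours, and that of H2-Q4 was smaller (1.18 ± 0.50).

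With both scores as covariates 0 members passed and 0 had an unadjusted p under 0.05, 0.00778% of all genes rose, and the estimate of H2-K1 was -0.022 ± 0.25. With library totals in place of TMM, 0 members passed and 1 had an unadjusted p under 0.05, against 0.249% of all genes that rose. That scaling moved the median of all tested genes to -0.41, and the share of higher calls among all calls from 74.9 to 19.4%. Relative to that median, the log2 fold changes were 0.86 for H2-K1, 0.76 for H2-D1, 0.82 for B2m, 0.93 for Nlrc5 and 1.55 for H2-Q4. Taking off the median is itself a rescaling much like TMM, so these values are no separate support for the calls. The fits with both scores and with library totals were chosen after the data had been seen.

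**Figure D2:**
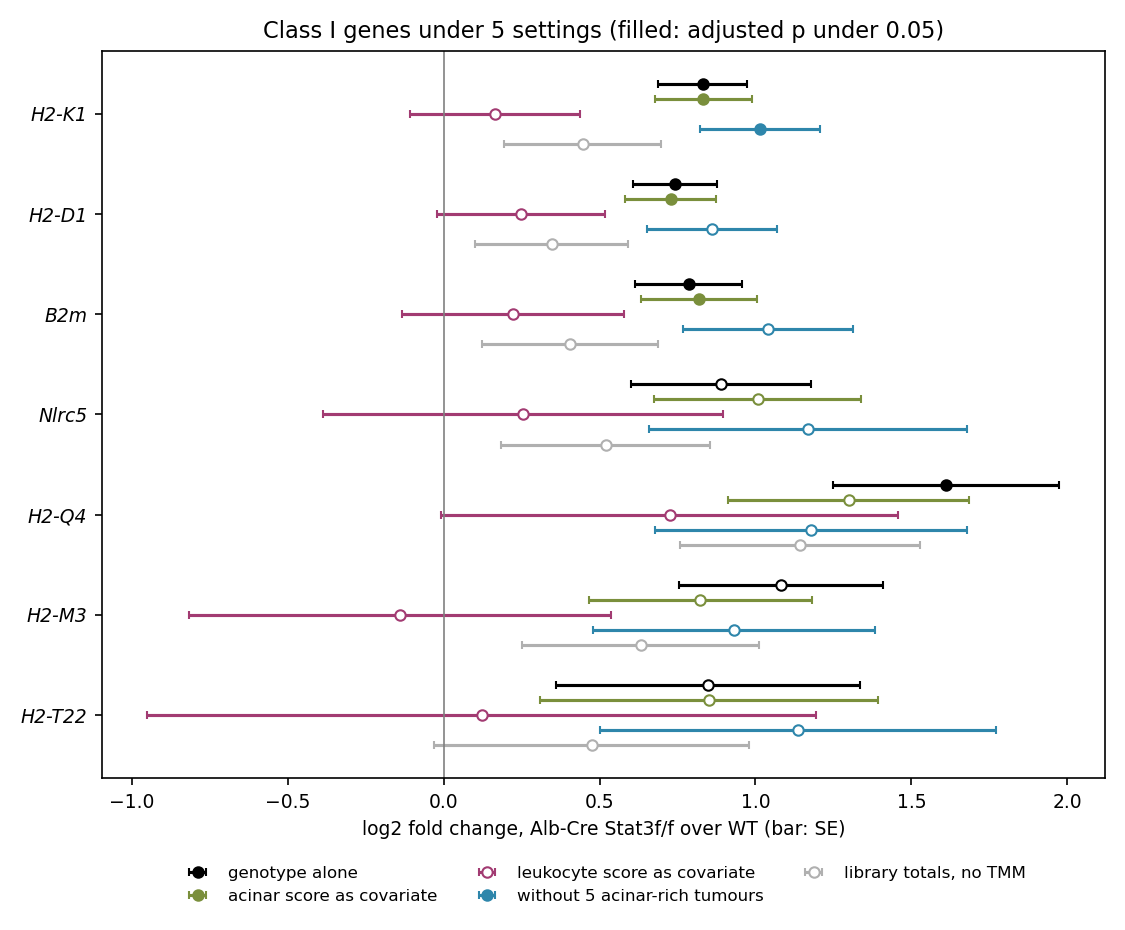
Log2 fold change, Alb-Cre Stat3f/f over WT (horizontal axis), of the 7 tested members under 5 settings of the edgeR fit. Points are estimates, bars are SE, and filled points passed the adjusted p threshold of 0.05. The estimates of H2-K1, H2-D1 and B2m stayed near their values with the acinar score as a covariate, and those of all 7 members were smaller with the leukocyte score as a covariate and with library totals.

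The 3 interferon-inducible enzymes that cut class I peptides rose. Over all tested genes 2.23% rose, the share to set beside this list and the next. Of 6 immunoproteasome genes, 3 rose, 0 fell and the median log2 fold change was 0.70. They were the catalytic subunits Psmb10 (1.14 ± 0.14; edgeR Benjamini-Hochberg adjusted p = 0.000170), Psmb9 (1.41 ± 0.25; adjusted p = 0.0126) and Psmb8 (1.01 ± 0.21; adjusted p = 0.0200). Psme1, a subunit of the proteasome activator, was 0.39 ± 0.15 and did not pass (adjusted p = 0.153). Of 8 peptide loading genes, 2 rose, 0 fell and the median was 0.30. They were Tap1, a chain of the peptide transporter (1.12 ± 0.23; edgeR Benjamini-Hochberg adjusted p = 0.0220), and Erap1, which trims peptides in the endoplasmic reticulum (0.51 ± 0.13; adjusted p = 0.0370). Tap2, the other chain, had a larger and less certain estimate (1.56 ± 0.57; adjusted p = 0.171), and the chaperone Tapbp did not pass (0.50 ± 0.16; adjusted p = 0.0986).

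Among other class I and class I-like chains 1 passed. Of 23 listed, 10 could be tested, and 2 of these (20%) had an unadjusted edgeR p under 0.05, against 19.4% of all tested genes. The median log2 fold change of the 10 was 0.30, 0 fell and 1 rose, against 2.23% of all tested genes. The 1 was Fcgrt, the neonatal Fc receptor, which pairs with B2m but binds antibody and albumin in place of peptide (0.57 ± 0.14; edgeR Benjamini-Hochberg adjusted p = 0.0335). H2-T10, which shares 3' sequence with H2-T22, was 0.94 ± 0.39 (adjusted p = 0.187), H2-K2 0.70 ± 0.36 (adjusted p = 0.295) and Cd1d1, which presents lipids, 0.44 ± 0.35 (adjusted p = 0.523).

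The factors that act upstream of these promoters did not pass in edgeR. Of 12 genes of the S, X and Y box machinery, 0 rose and 0 fell, 2 (16.7%) had an unadjusted p under 0.05, against 19.4% of all tested genes, and the median log2 fold change was 0.06. DESeq2 called 1 of them higher, against 4.10% of the genes to which it gave an adjusted p. The 1 was Ciita, the class II counterpart of Nlrc5 (edgeR 0.78 ± 0.23, Benjamini-Hochberg adjusted p = 0.0648). Kat2b, a histone acetyltransferase, was 0.46 ± 0.15 (adjusted p = 0.0965), Rfx5, which binds the X box, 0.28 ± 0.20 (adjusted p = 0.470) and the coactivator Crebbp -0.11 ± 0.11 (adjusted p = 0.623). Of 15 tested genes of interferon and NF-kB signalling, 0 passed in edgeR, 4 (26.7%) had an unadjusted p under 0.05 and the median was 0.19. DESeq2 called 3 of them higher, among them Stat2 and Irf1, against the same 4.10%. In edgeR, Stat2 was 0.58 ± 0.16 (Benjamini-Hochberg adjusted p = 0.0522) and Irf1 0.57 ± 0.20 (adjusted p = 0.132), while Ifngr2, a chain of the interferon gamma receptor, was -0.36 ± 0.12 (adjusted p = 0.109). The 4 tested genes of PRC2, a repressor complex known to silence class I in tumours, had 0 calls in either tool, 0 unadjusted p under 0.05 and a median of -0.06. Ezh1 was -0.14 ± 0.13 (adjusted p = 0.604), Ezh2 -0.10 ± 0.13 (adjusted p = 0.715), Suz12 0.07 ± 0.10 (adjusted p = 0.761) and Eed -0.02 ± 0.15 (adjusted p = 0.970).

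The list of receptors that bind class I, known from lymphocytes and myeloid cells, had the highest median of the related lists, 0.93. Against 2.23% of all tested genes that rose, 3 of the 9 tested rose and 0 fell. They were Klrd1, the CD94 chain of killer receptors (1.99 ± 0.41; edgeR Benjamini-Hochberg adjusted p = 0.0124), Pirb (0.92 ± 0.19; adjusted p = 0.0113) and Lilrb4a (0.64 ± 0.15; adjusted p = 0.0275), both inhibitory receptors of the leukocyte immunoglobulin-like family. Lilrb4a stands in the list, but its known ligand is an integrin, so of the 8 others 2 rose. DESeq2 called 6 higher, adding Klrk1, Cd8a and Cd8b1, against 4.10% of the genes to which it gave an adjusted p. Klrk1, the activating receptor NKG2D, was 1.40 ± 0.39 in edgeR (Benjamini-Hochberg adjusted p = 0.0572). The leukocyte score, built from other genes, did not overlap between the groups either, as given above. Which cells carried the receptor transcripts was not tested.

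**Figure D3:**
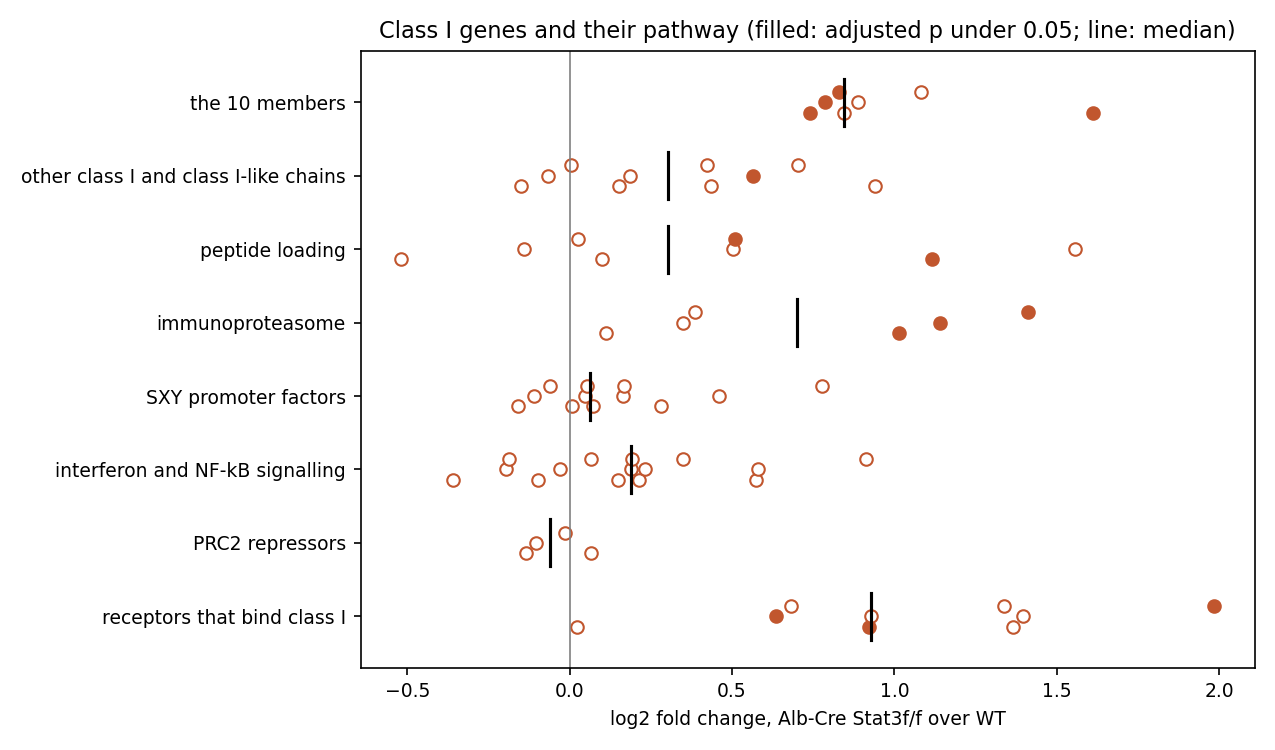
Log2 fold change, Alb-Cre Stat3f/f over WT (horizontal axis), of each tested gene in the class I members and 7 related lists (rows). Filled points passed the edgeR adjusted p threshold of 0.05 and the black line is the list's median. The medians run from -0.06 for PRC2 to 0.93 for the receptors, with 0.85 for the members.

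Within a genotype, tumours with more Nlrc5 had more H2-K1 and B2m among the 6 WT tumours. Pearson r on log2 CPM was 0.859 for Nlrc5 with H2-K1 (exact permutation p = 0.00417, adjusted p = 0.0333 over 12 relations; Spearman rho 0.943, exact p = 0.0167, adjusted p = 0.200). It was 0.923 for Nlrc5 with B2m (exact permutation p = 0.00833, adjusted p = 0.0333; rho 0.829, exact p = 0.0583, adjusted p = 0.233). Without the 2 tumours farthest from the median Nlrc5 level, r was 0.972 and 0.928. In the 6 Alb-Cre Stat3f/f tumours r was 0.470 (exact permutation p = 0.350, adjusted p = 0.420; rho 0.371, exact p = 0.497, adjusted p = 0.542) and 0.774 (exact permutation p = 0.0514, adjusted p = 0.123; rho 0.771, exact p = 0.103, adjusted p = 0.247), and the difference between genotypes was not tested. The same trimming moved these values to 0.947 and 0.287, so neither held steady without the tumours left out. Alb-Cre Stat3f/f 2, with the lowest Nlrc5 and the second highest H2-K1 of its group, stood off the line.

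H2-K1 and B2m had r = 0.942 in WT tumours (exact permutation p = 0.0264, adjusted p = 0.0792; rho 0.771, exact p = 0.103, adjusted p = 0.247). It was -0.081 without the 2 tumours farthest from the median, so it rested on the low pair, WT 1 and WT 6. In Alb-Cre Stat3f/f tumours r was 0.544 (exact permutation p = 0.260, adjusted p = 0.346; rho 0.600, exact p = 0.242, adjusted p = 0.483). With the leukocyte score, H2-K1 had r = 0.673 in WT (exact permutation p = 0.133, adjusted p = 0.267; rho 0.486, exact p = 0.356, adjusted p = 0.503) and 0.628 in Alb-Cre Stat3f/f tumours (exact permutation p = 0.167, adjusted p = 0.286; rho 0.543, exact p = 0.297, adjusted p = 0.503). Neither passed, and both were positive.

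The correlation of H2-K1 with the tumour epithelium score had opposite signs in the genotypes. In Alb-Cre Stat3f/f tumours r was 0.925 (exact permutation p = 0.00833, adjusted p = 0.0333; rho 0.829, exact p = 0.0583, adjusted p = 0.233), but 0.345 without the 2 tumours farthest from the median, so the relation rested on those tumours. In WT tumours r was -0.542 (exact permutation p = 0.225, adjusted p = 0.338; rho -0.429, exact p = 0.419, adjusted p = 0.503). The difference between genotypes was not tested. With the acinar score r was 0.287 in WT (exact permutation p = 0.571, adjusted p = 0.586; rho 0.0857, exact p = 0.919, adjusted p = 0.919) and -0.326 in Alb-Cre Stat3f/f tumours (exact permutation p = 0.586, adjusted p = 0.586; rho -0.429, exact p = 0.419, adjusted p = 0.503).

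**Figure D4:**
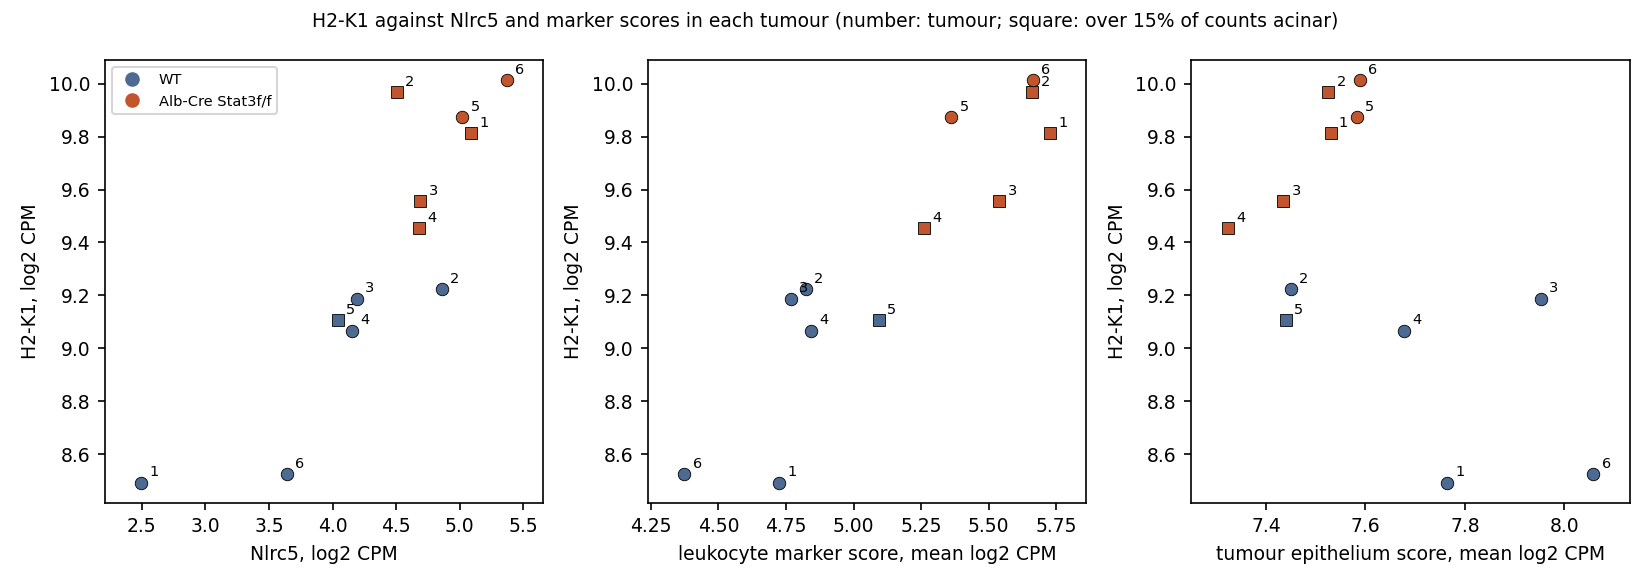
H2-K1 (log2 CPM, vertical axis) against Nlrc5 (log2 CPM), the leukocyte score and the tumour epithelium score (mean log2 CPM, horizontal axes) in each of 12 tumours. Numbers are the tumours of each genotype and squares are acinar-rich. The leukocyte scores of the 2 genotypes do not overlap, and WT 1 and WT 6 are lowest for H2-K1.

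After the genotype means were taken out, H2-K1, H2-D1, B2m and Nlrc5 varied closely together, and the other tested members less so with them. As a description over the same 12 libraries, all 21 pairs of the 7 tested members had r above 0. The median r was 0.347, and r ran from 0.04 for H2-T22 with Nlrc5 to 0.951 for H2-D1 with B2m. How often pairs of other genes have r above 0 was not tested. Nlrc5 had r = 0.899 with B2m, 0.886 with H2-D1 and 0.758 with H2-K1. H2-Q4 and H2-M3 went together (r = 0.659) and less with B2m (0.319 and 0.175), and both had few counts.

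Among 10587 other genes of at least 5 CPM, the 8 most like the mean of the tested members after the genotype means were taken out were Ceacam1 (r = 0.905 over 12 tumours), Cd8a (0.879), Cxcr6 (0.872), Gm4841 (0.865), Il17rc (0.863), Uba7 (0.840), Hirip3 (0.837) and Gemin5 (0.829). The ranking, like that for Nlrc5 below, takes the top of 10587 genes, and how many would reach such r by chance was not tested. Cd8a is the co-receptor of the T cells that read class I, and Cxcr6 a chemokine receptor of T cells. Their log2 fold changes between genotypes ranged widely, from -0.09 for Il17rc and 0.02 for Ceacam1 to 1.34 for Cd8a, and none of the 8 passed the test. The 5 most like Nlrc5 alone were Mdp1 (0.926), Gbp9 (0.924), Usp1 (0.924), Ppp2r5e (0.917) and Nceh1 (0.911). Gbp9, an interferon-inducible guanylate-binding protein, rose between genotypes (0.74; edgeR Benjamini-Hochberg adjusted p = 0.0340), and the other 4 did not pass.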

How the data were processed

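The authors deposited one table of raw read counts per gene symbol, as whole numbers that sum to another total in every library. QuantSeq 3' mRNA-Seq FWD libraries were made from fixed tissue, per the labels' protocols. STAR and mm10 are named in the submitters' processing notes. The sources used here do not give the counting tool, annotation, strand setting, treatment of shared reads or use of molecular identifiers. Of 24982 entries, 26 bore a date number in place of a symbol and were left out (0.0690 to 0.166% of counts). Libraries of 1 genotype differed by at least 11.8 in chi-square per gene, so none was a copy of another to within counting error. Pairs across genotypes were not compared, and separate samples of the same tumour could go unseen.

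In R 4.3.3, edgeR 4.0.16 (filterByExpr, minimum count 10, minimum total count 15; TMM; robust quasi-likelihood test; genotype as the sole term; common dispersion 0.0626) was fitted over all 12 tumours. DESeq2 1.42.0 was an alternative. Log2 CPM used a prior count of 2. The code was tested on simulated counts. All members were named, with up to 4 genes of each list by smallest p; 1 gene so chosen is not reported here. The members and lists were chosen with earlier results of these data known.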

Additional observations from a re-analysis of the deposited data

Results flagged for a closer look

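Over 32 groups of 6 values, 1 had a sample far from the others. The H2-D1 level of Alb-Cre Stat3f/f tumour 6 was 1055 CPM, while the other 5 tumours of the group lay from 900 to 951 CPM, so the gap took 0.668 of the whole range, above the critical value of Dixon's test for 6 values. Chance alone flags about 5% of groups whose values vary. The same tumour was highest of the 12 for H2-K1, B2m and Nlrc5. Without it the log2 fold change of H2-D1 kept its direction and passed the edgeR test.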

How the results depend on the processing

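The 4 calls (H2-K1, H2-D1, B2m and H2-Q4) held with relative log expression or upper quartile factors, with no filter on low counts, without acinar genes and Rn45s, and in DESeq2. At a filter of 10 CPM 4 members were left, of which 3 passed. Members past the test numbered 0 with the leukocyte score, 0 with both scores, 0 with library totals and 1 without acinar-rich tumours. Genes higher and lower, 287 and 96 as reported, became 614 and 283 in DESeq2, 136 and 36 with the acinar score, 1 and 0 with the leukocyte score, 1 and 0 with both scores, 83 and 14 without acinar-rich tumours, and 32 and 133 with library totals, where lower calls outnumbered higher ones.

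Leaving out each tumour in turn gave 3 to 5 members past the test, 141 to 471 genes higher and 37 to 222 lower. The highest counts came without Alb-Cre Stat3f/f 5 and the lowest without Alb-Cre Stat3f/f 1. The log2 fold change ran from 0.75 to 0.89 for H2-K1, from 0.64 to 0.79 for H2-D1 and from 0.67 to 0.86 for B2m, and these 3 passed in all 12 fits (highest edgeR Benjamini-Hochberg adjusted p 0.0117, 0.0175 and 0.0478). Relative to B2m, 0 or 1 members passed. The 1 was H2-Q4, in the fits that left out WT 5 and, of Alb-Cre Stat3f/f, tumours 3, 5 and 6.

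Of the log2 fold changes that turned sign, 1 belonged to a called member: H2-K1 was -0.022 with both scores. H2-M3 was -0.14 with the leukocyte score and -0.035 with both, and Nlrc5 -0.056 with both. Relative to B2m, H2-K1 was -0.013 with the acinar score, -0.091 with the leukocyte score, -0.048 with both and -0.057 without acinar-rich tumours, and -0.046 to 0.085 without single tumours. H2-M3 relative to B2m was -0.022, -0.40, -0.053 and -0.19 under the same 4 settings. H2-D1 relative to B2m was 0.0058 with the leukocyte score and 0.11 with both, H2-T22 -0.12 and -0.087, and Nlrc5 -0.10 with both. H2-T22 relative to B2m ran from -0.16 to 0.31 without single tumours. Without the 2 tumours farthest from the median, r changed sign for H2-K1 with B2m in WT (-0.081) and for the acinar score with H2-K1 in WT (-0.77) and Alb-Cre Stat3f/f tumours (0.149). The cause of these changes was not tested.

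With the replicate number as a block, the same 4 members passed, with 145 genes higher and 44 lower. The numbers did not pair the tumours: same-numbered tumours had r from -0.513 to 0.127, over 0.1 in 2 of 6 pairs, and 0 WT tumours matched their own number best. The replicate block changed no call of a member. Relative to B2m, DESeq2 and the other 2 scalings were not run, since they would replace the B2m scaling. Depth limits H2-Q4, H2-M3, H2-T22 and H2-T23, which had 50 counts or fewer in every library.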
